A study of Mus musculus with 9 samples.

Results

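Promoters of low CpG content were taken as the 500 bp on both sides of the transcription start site (TSS) of protein-coding genes that held 4 to 14 CpGs with at least 3 reads in *Dnmt3b* KO ESCs. Start sites were those of the isoform of the longest genomic span in mm9, on chromosomes 1 to 4 and 10 to 19, and the olfactory receptor genes with symbols that start with *Olfr* (467 promoters) were left out. The rule found 2719 promoters among 14516 protein-coding genes, and it used the number of covered CpGs but no methylation value. The methylation level of a promoter was the mean, over its CpGs read 3 or more times in each genotype, of the share of reads that were methylated. Such a level was obtained for 2661 promoters, through 22929 distinct CpGs. The other 58 have none: 57 lie on chromosome 4 beyond the last position of the WT table, and *Stfa1* shared no such CpG. The label was checked against the sequence. The median promoter held 9 reference CpGs at a GC content of 45.6%, with an observed over expected CpG ratio of 0.169, against 0.773 in promoters with more than 40 covered CpGs. In 73 of the 2719 promoters the reference held more than 14 CpGs, up to 40, so that these met the rule through missing coverage.

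The study compared whole genome bisulfite sequencing (WGBS) of J1 ESCs that were wild type (WT) or lacked either *Dnmt3a* (*Dnmt3a* KO) or *Dnmt3b* (*Dnmt3b* KO). J1 is a line of male mouse embryonic stem cells of strain 129S4/SvJae. All 3 genotypes were grown on gelatin in the same medium with serum and LIF, and the number of clones behind each KO is not given in the sources used here. There were 3 libraries per genotype, but they were deposited merged, as 1 table per genotype, and the labels call the libraries biological replicates. No replicate error can be given, no test across samples was possible, and every interval below covers counting error only. Reads of a promoter were summed over its CpGs, so that a read over several CpGs was counted at each. The intervals treat these counts as independent, and may therefore be too narrow. A difference of more than 20 percentage points was taken as a call. Both KOs are set against the same WT table, and levels without *Dnmt3a* or without *Dnmt3b* are those of the KO ESCs.

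DNMT3A and DNMT3B are the enzymes that place new methyl groups on CpGs, and DNMT1 copies methylation at replication. In mammalian genomes CpG islands at promoters are mostly free of methylation, whereas promoters poor in CpGs carry methylation like the DNA around them. Many of the latter belong to genes used in a single tissue, such as those of skin, liver, placenta and blood, which ESCs do not use.

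The upstream sequences of 6 promoters show how sparse these CpGs are. Each leads its group among 1745 promoters with at least 4 shared CpGs, at least 10 reads per CpG in every genotype, no overlapping promoter and no symbol of a predicted model or clone, except that *Ccl7* stands second after *Trp63*, whose stretch overlaps an annotated exon. They are given in mm9, written 5′ to 3′ on the strand of the gene, with CpGs in capitals. Each comes from the 300 bases with the most CpGs within the 500 bp before the TSS, with at most 20 bases beyond the outermost ones, and no annotated exon overlaps it. *Zscan10* (chr17:23737547-23737635, plus strand) was the lowest in WT, and its stretch shows CpGs that stay unmethylated in a CpG-poor promoter. *Fbxw10* (chr11:62660271-62660570, plus strand) and *Itgb2l* (chr16:96665334-96665548, minus strand) were lowest and highest against WT in *Dnmt3a* KO ESCs among those at 80% or more in WT. *Dph3b-ps* (chr13:107337449-107337555, minus strand) was, at the same WT level, farthest below WT in *Dnmt3b* KO ESCs and *Ccl7* (chr11:81858914-81859197, plus strand) far above it. *Tet1* (chr10:62362056-62362355, minus strand) differed most among pluripotency genes. The reference is of strain C57BL/6J, and base differences of 129S4/SvJae from it were not examined. Nor were repeats within these stretches, whose reads may not all be of the locus alone.
Zscan10: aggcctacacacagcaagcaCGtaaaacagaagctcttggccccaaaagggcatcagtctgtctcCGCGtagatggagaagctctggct
Fbxw10: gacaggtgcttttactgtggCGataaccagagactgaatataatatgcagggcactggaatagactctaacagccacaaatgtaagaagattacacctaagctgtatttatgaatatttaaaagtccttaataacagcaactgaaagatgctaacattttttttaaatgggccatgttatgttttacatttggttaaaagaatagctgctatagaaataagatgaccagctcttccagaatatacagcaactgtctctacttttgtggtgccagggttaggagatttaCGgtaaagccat
Itgb2l: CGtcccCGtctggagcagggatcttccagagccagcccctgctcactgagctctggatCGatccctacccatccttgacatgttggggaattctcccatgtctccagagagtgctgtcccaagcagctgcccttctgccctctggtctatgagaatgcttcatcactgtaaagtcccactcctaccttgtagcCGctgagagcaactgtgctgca
Dph3b-ps: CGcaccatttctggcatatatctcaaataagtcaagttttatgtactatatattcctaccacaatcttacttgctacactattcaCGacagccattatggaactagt
Ccl7: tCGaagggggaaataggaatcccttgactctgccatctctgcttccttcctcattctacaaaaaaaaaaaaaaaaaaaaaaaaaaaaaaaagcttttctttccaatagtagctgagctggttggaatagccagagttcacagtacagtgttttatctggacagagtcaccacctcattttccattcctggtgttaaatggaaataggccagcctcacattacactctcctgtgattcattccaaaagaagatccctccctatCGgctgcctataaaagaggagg
Tet1: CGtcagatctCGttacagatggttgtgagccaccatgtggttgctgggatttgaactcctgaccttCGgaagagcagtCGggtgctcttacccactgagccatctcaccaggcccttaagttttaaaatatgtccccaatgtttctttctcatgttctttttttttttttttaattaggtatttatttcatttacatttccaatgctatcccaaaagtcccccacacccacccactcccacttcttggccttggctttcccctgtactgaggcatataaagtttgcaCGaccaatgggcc

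Low-CpG promoters were densely methylated in WT, far lower in *Dnmt3a* KO ESCs and slightly lower in *Dnmt3b* KO ESCs. The median level was 90.6% in WT, 52.6% without *Dnmt3a* and 82.9% without *Dnmt3b*. The middle 50% of promoters lay between 85.1% and 93.9% in WT, between 40.95% and 61.7% without *Dnmt3a* and between 74.7% and 88.4% without *Dnmt3b*, so that the interquartile range of *Dnmt3a* KO ESCs did not touch the other two. The median difference from WT was -36.4 percentage points without *Dnmt3a* and -7.07 percentage points without *Dnmt3b*. Within a promoter, *Dnmt3a* KO minus *Dnmt3b* KO had a median of -28.5 percentage points. The middle promoter was read 23.8 times per CpG in WT, 21.8 times without *Dnmt3a* and 22.9 times without *Dnmt3b*.

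**Figure D1:**
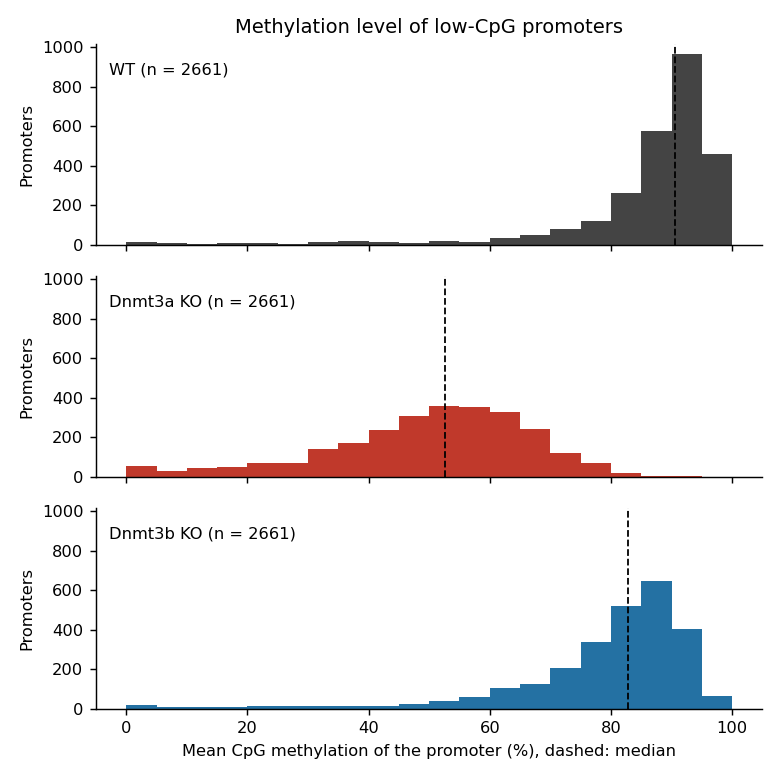
Number of low-CpG promoters (y axis) by methylation level in 5% bins (x axis) in WT and the KOs of *Dnmt3a* and *Dnmt3b*, 2661 promoters each, with the median dashed. WT and *Dnmt3b* KO ESCs pile up at the right, with medians of 90.6% and 82.9%, while *Dnmt3a* KO ESCs form a broad peak around 52.6%.

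In *Dnmt3a* KO ESCs 2418 of 2661 low-CpG promoters (90.9%) were more than 20 percentage points under WT, where the background over all 14238 promoters with values was 37.5%. A stricter demand was that the Newcombe interval of the pooled read shares lie below a difference of -20 percentage points. By it 1951 (73.3%) passed, against 30.3% of all promoters. Of the 1-kb windows with 4 to 14 covered CpGs away from promoters, 62.5% passed. These windows were not matched to the promoters in CpG number: 167780 of 1096874 held 4 CpGs, as did 247 of the 2661 promoters. More reads narrow an interval, and the part of CpG number and depth in these shares was not tested. At 80% or more in WT 1703 of 2260 (75.4%) passed, against 74.1% of all promoters at that level. By the plain limit the background among all promoters at 80% or more in WT was 92.3%, and 2098 of the 2260 low-CpG promoters at that level (92.8%) passed. Without *Dnmt3b* 198 of 2661 (7.44%) were more than 20 percentage points under WT, against 4.67% of all promoters. The count was 326 within 250 bp of the TSS and 100 within 1000 bp. By the interval 42 (1.58%) passed, against 1.5% of all promoters and 1.03% of those windows, and at 80% or more in WT 28 (1.24%) did, against 2.15%. By the plain limit 146 of the low-CpG promoters at 80% or more in WT (6.46%) passed, against 8.84% of all promoters at that level. These backgrounds hold the low-CpG promoters themselves. Of the 957516 other 1-kb windows at 80% or more in WT, 89.7% passed the plain limit without *Dnmt3a* and 5.92% without *Dnmt3b*. The shares at that level were thus near the backgrounds, and in *Dnmt3b* KO ESCs the low-CpG promoters lay under all promoters and above the windows. All promoters at that level include 482 with under 4 covered CpGs and 429 of the *Olfr* promoters left out of the class. The part of CpG number or of the *Olfr* promoters in this order was not tested. *Dnmt3a* KO was below *Dnmt3b* KO by more than 20 percentage points at 2048 promoters (77.0%, background 29.3%). In the other 1-kb windows the median of *Dnmt3a* KO minus *Dnmt3b* KO was -26.4 percentage points, near the -28.5 of low-CpG promoters. *Dnmt3a* KO was above *Dnmt3b* KO by more than 20 percentage points at 1 promoter (background 0.0492%). That promoter is *Igsf8*, which codes for an immunoglobulin superfamily membrane protein. It rested on 3 shared CpGs, with 73.8% in WT, 29.2% without *Dnmt3a* and 6.67% without *Dnmt3b*.

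No low-CpG promoter was more than 20 percentage points above WT in *Dnmt3a* KO ESCs, and none of the 14238 promoters was. A level above WT was seen at 5 of 2661, with *Ikzf2*, which codes for the lymphocyte factor Helios, the farthest above WT (16.5% in WT, 27.2% in *Dnmt3a* KO, 7 shared CpGs). Its CpGs had on average 6.57 reads in WT, and 9 of the 21 reference CpGs were covered, so that it entered the class through missing coverage. In *Dnmt3b* KO ESCs 357 promoters were above WT. The share above WT by any amount outside the class is not given here. The 95th percentile of *Dnmt3b* KO minus WT was 3.19 percentage points in the class and 4.40 in the other 1-kb windows. For *Dnmt3a* KO minus WT it was -16.3 and -14.6. Of the 357, 5 were above WT by more than 20 percentage points (background 0.105%). These were *Trp63*, *Gm3366*, *Rps19-ps2*, *Dcpp1* and *Dcpp2*. *Gm3366* rested on 2 shared CpGs and *Rps19-ps2* on 1. *Dcpp1* and *Dcpp2* start 5 bp apart in this annotation and rested on the same CpG, so that only *Trp63* had more than 2 CpGs.

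Single CpGs were mostly methylated in WT and mostly intermediate in *Dnmt3a* KO ESCs. Of 18770 CpGs read 10 or more times in each genotype, 82.2% were at 80% or more in WT, 14.001% without *Dnmt3a* and 65.6% without *Dnmt3b*. The share between 20% and 80% was 15.1% in WT, 70.98% without *Dnmt3a* and 30.3% without *Dnmt3b*. CpGs under 20% made up 2.70% in WT, 15.0% without *Dnmt3a* and 4.11% without *Dnmt3b*.

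The starting level in WT separated the promoters. The 2260 at 80% or more in WT had medians of 91.6% in WT, 54.8% without *Dnmt3a* and 84.8% without *Dnmt3b*. The 312 between 50% and 80% had medians of 72.9%, 33.5% and 63.1% in the same order, and the 58 between 20% and 50% had 36.5%, 8.15% and 26.6%. The *Dnmt3a* KO medians were thus a smaller part of the WT medians where WT was incomplete. The same held in 1-kb windows away from promoters, with 73.6%, 42.6% and 66.9% for those between 50% and 80% in WT and 41.6%, 14.7% and 32.0% for those between 20% and 50%. In promoters at 80% or more, *Dnmt3a* KO ESCs kept a median of 60.05% of the WT level and *Dnmt3b* KO ESCs 92.3%. Across these 2260 promoters the levels of the 2 KOs had a Pearson's r of 0.497 and a Spearman's rho of 0.453, over promoters of 1 pooled table each that share base composition.

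The number of CpGs, which defined the class, moved its medians little, but calls without *Dnmt3b* were more frequent at the fewest CpGs. Medians by CpG number lay between 88.6% (4 CpGs) and 91.6% (13 CpGs) in WT, between 49.0% (4 CpGs) and 54.9% (6 CpGs) without *Dnmt3a* and between 79.0% (4 CpGs) and 84.4% (8 CpGs) without *Dnmt3b*. The share called without *Dnmt3b* was 16.2% at 4 CpGs, 11.2% at 5 and 4.17% at 8, where windows away from promoters had 12.5%, 9.30% and 4.02%. The share of promoters under 50% in WT lay between 1.13% (6 CpGs) and 6.86% (14 CpGs). At the lower limit, promoters with 3 CpGs just outside the class had medians of 89.4%, 50.7% and 78.5% in WT and the KOs of *Dnmt3a* and *Dnmt3b*, and those with 4 had 88.6%, 49.0% and 79.0%. At the upper limit, those with 14 had 90.1%, 50.8% and 83.1%, and those with 15 had 90.3%, 46.1% and 83.0%. Medians in WT and *Dnmt3b* KO ESCs showed no sharp edge at either limit. In *Dnmt3a* KO ESCs the median at 15 CpGs was lower than at any number within the class. Well beyond it the picture was another: 3018 promoters with 15 to 40 CpGs had medians of 57.5%, 13.8% and 39.2%, and 7480 with more than 40 CpGs had 1.498%, 0.453% and 0.809%.

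In their medians, low-CpG promoters resembled intergenic and intragenic DNA of the same CpG number, at a somewhat lower level in *Dnmt3a* KO ESCs. They were set against 1096874 windows of 1 kb with 4 to 14 covered CpGs that touch none of the 14516 promoters as defined here. Other annotated starts of these genes were not left out of the windows. Weighted to the same CpG numbers, medians at promoters and at windows were 90.5% and 91.5% in WT, 52.4% and 56.9% without *Dnmt3a* and 82.9% and 84.9% without *Dnmt3b*. Promoters minus windows, the gap was -1.04 percentage points in WT, -4.51 without *Dnmt3a* and -2.02 without *Dnmt3b*. By chromosome, promoters were below windows on 10 of 14 in WT, 12 of 14 in *Dnmt3a* KO (all but 4 and 12) and 11 of 14 in *Dnmt3b* KO ESCs. Calls of more than 20 percentage points were 87.7% of windows without *Dnmt3a* and 6.37% without *Dnmt3b*, beside the 90.9% and 7.44% of low-CpG promoters. Unlike the medians, these shares were not weighted to the same CpG numbers.

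**Figure D2:**
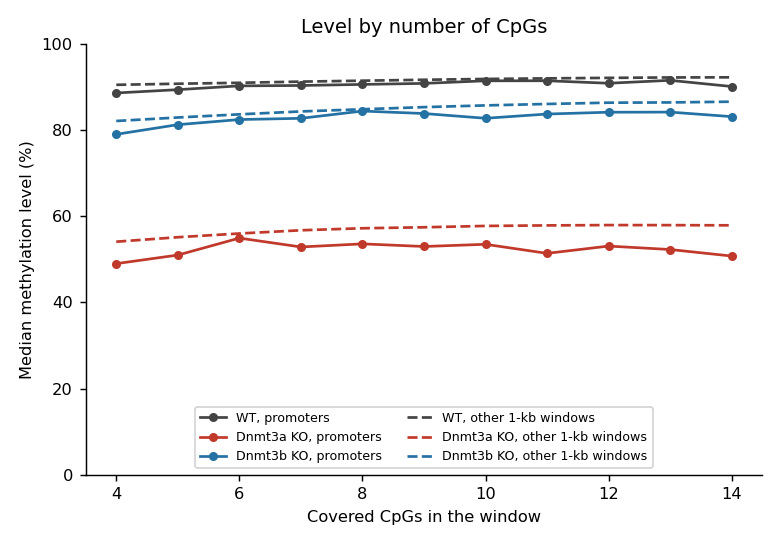
Median methylation level (y axis, %) by the number of covered CpGs (x axis) for low-CpG promoters (solid, points) and other 1-kb windows (dashed) in the 3 genotypes. In *Dnmt3a* KO ESCs the promoters run between 49.0% and 54.9%, below the windows at every CpG number (54.1% to 58.0%).

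Compared with their own surroundings, the promoters differed little. The DNA from just beyond these 500 bp to 3000 bp upstream of 2635 of them had medians of 89.8% in WT, 53.4% without *Dnmt3a* and 82.5% without *Dnmt3b*. The median of the promoter minus this region was 0.793 percentage points in WT, -0.799 without *Dnmt3a* and 0.405 without *Dnmt3b*. Promoters more than 20 percentage points below it were 6.30% in WT, 13.7% without *Dnmt3a* and 8.65% without *Dnmt3b*. Those more than 20 percentage points above it were 5.35%, 10.7% and 7.21%, so that the spread was wider on both sides in *Dnmt3a* KO ESCs. A level as high as that of WT leaves little room above it, and the part of the level in this spread was not tested. Against the body of the gene, measured for 2386 genes, 5.66%, 13.2% and 8.01% were below and 6.45%, 8.42% and 7.17% above.

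Along the promoter the level was lowest just before the TSS. In the 100 bp upstream of it the mean of 2487 CpGs was 84.6% in WT, 45.7% without *Dnmt3a* and 76.5% without *Dnmt3b*. In the 100 bp farthest upstream it was 87.3%, 51.1% and 80.3% for 1901 CpGs. The mean then reached 87.2%, 51.3% and 79.97% between 100 and 199 bp downstream. The dip was thus present in every genotype, and it was largest in *Dnmt3a* KO ESCs.

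**Figure D3:**
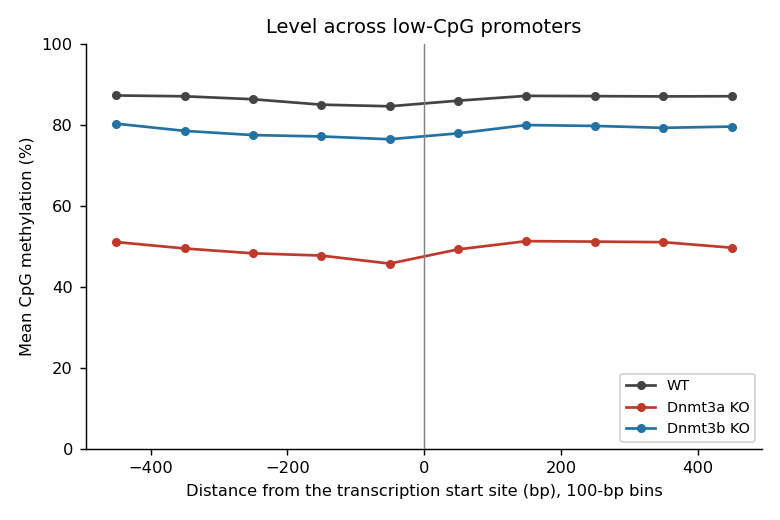
Mean CpG methylation (y axis, %) in 100-bp bins of distance from the TSS (x axis, bp, negative upstream) over low-CpG promoters in the 3 genotypes. The lowest point of each line lies in the bin before the TSS, at 84.6% in WT, 45.7% without *Dnmt3a* and 76.5% without *Dnmt3b*.

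The bases next to the CpG went with the level, in a different order in each KO. Tetramers are written on either strand, so that CCGA stands also for TCGG. In *Dnmt3a* KO ESCs the lowest of the 10 tetramers was ACGT, with a mean of 40.8% over 1848 CpGs, and the highest was CCGA, with 56.01% over 3169. ACGT was below CCGA on 14 of 14 chromosomes, as it also was in WT by a smaller difference (84.9% and 87.7%). Without *Dnmt3b* the lowest was TCGA, with 72.3% over 1362 CpGs, and the highest was GCGC, with 83.3% over 1001. TCGA was below GCGC on 13 of 14 chromosomes, all but 18, while in WT it was lower on 8 (86.6% and 86.9%). TCGA was among the higher tetramers in *Dnmt3a* KO ESCs, at 54.8%, and GCGC among the lower, at 45.5%.

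These differences were also seen in promoters at 80% or more in WT and in DNA away from promoters. In the former, ACGT and CCGA had means of 44.3% and 59.8% in *Dnmt3a* KO ESCs (CCGG had the highest, 61.0%), and TCGA and GCGC had 75.4% and 89.4% in *Dnmt3b* KO ESCs. In the other 1-kb windows ACGT and CCGA had 46.5% and 59.95% in *Dnmt3a* KO ESCs (CCGG again the highest, 61.9%), and TCGA and GCGC had 74.3% and 87.0% in *Dnmt3b* KO ESCs. The pattern is therefore not particular to low-CpG promoters. The median depth of ACGT at low-CpG promoters was 24 reads in WT and 22 without *Dnmt3a*, and that of CCGA 23 and 21. That of TCGA and GCGC in *Dnmt3b* KO ESCs was 22.5 and 21, and the part of depth in these differences was not tested.

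A pair of bases on either side separated the CpGs further, in a split chosen after the tetramers had been seen. Among 119 hexamers with at least 60 CpGs the mean ran from 80.1% to 92.9% in WT, from 26.4% to 68.5% without *Dnmt3a* and from 64.7% to 91.7% without *Dnmt3b*. In *Dnmt3a* KO ESCs the lowest was GGCGCC, at 26.4% over 80 CpGs where WT had 87.9%. The next were CCCGCC at 30.7%, AACGTG at 32.7% and CACGTG, the letters of an E-box, at 33.1%. In WT these were at 80.2%, 81.3% and 82.3% in the same order, also low among the 119, whose lower quartile was 85.4%. The highest in *Dnmt3a* KO ESCs were TACGCA at 68.5% and GCCGTA at 68.4%. In *Dnmt3b* KO ESCs AACGTT was lowest, at 64.7%, as it was in WT, at 80.1%, and TACGTA highest, at 91.7% with 66.6% in *Dnmt3a* KO ESCs. In WT TACGTA was at 92.0% and TACGCA at 92.7%.

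Promoter motifs were searched on both strands in the 300 bases before the TSS. TATAAA was found in 23.3% of low-CpG promoters and in 14.03% of all 14516 promoters, and CCAAT in 37.4% and 38.2%. GGGCGG, the letters of a GC box, was found in 7.17% and 43.2%, and CACGTG in 3.68% and 7.60%. Both hold a CpG, whereas TATAAA holds only A and T. Median GC content was 45.6% in the class and 61.4% in promoters with more than 40 covered CpGs. The part of base composition in these shares was not tested. Low-CpG promoters with GGGCGG (182 with values) had medians of 88.0% in WT, 43.8% without *Dnmt3a* and 80.001% without *Dnmt3b*, and those without it 90.7%, 53.0% and 83.1%. Those with TATAAA (623) had 91.3%, 54.8% and 84.4%. The lowest and highest quartiles of GC content had *Dnmt3a* KO medians of 54.1% and 48.9%, and 55.1% and 52.7% among promoters at 80% or more in WT.

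Few low-CpG promoters were free of methylation in WT ESCs. There were 31 under 20% (1.16%), a larger share than the 0.142% of the other 1-kb windows with 4 to 14 covered CpGs. Over all 14238 promoters with values the share was 57.5%. The 31 had medians of 6.88% in WT, 1.28% without *Dnmt3a* and 3.33% without *Dnmt3b*. Of these, 24 (77.4%) had 10 or more covered CpGs, against 42.8% of all low-CpG promoters. They had a median of 36 CpGs between these 500 bp and 2000 bp on both sides, against 24 over the class. *Zscan10*, which codes for a zinc finger factor of the pluripotency network, was the lowest of the 1745 promoters from which genes were named, with 0.198% in WT over 14 CpGs and 298 reads. It had 0% without *Dnmt3a* and 0.340% without *Dnmt3b*, and each of the 3 CpGs in the printed stretch was at 4.76% or less in every genotype. Positions beside gene names here are those of the promoter window of 1001 bp in mm9. *Gng3* (chr19:8913236-8914236), a G protein subunit of neurons, had 1.41%, 0.435% and 2.98% in the same order. *Zfp345*, a zinc finger gene, had 1.52%, 0.345% and 0%. *Fam169a* had 1.55% in WT, *Lrrn4*, a leucine-rich repeat protein, 2.01%, and *Tmem79*, a membrane protein of the epidermis, 3.80%. *Fam169a* has 16 reference CpGs and entered the class through missing coverage, and another start of the gene held 145 CpGs. The deepest promoter of the class, of the model *Gm10222*, was read about 5011 times per CpG in WT and was at 0.585%, and it was the only one with a CpG of more than 500 reads. It is counted among the 31. The middle promoter of the class was read 23.8 times per CpG in WT. The level of *Gm10222* may therefore not be that of this locus alone, and the origin of its reads was not tested.

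At the promoters with the largest differences in *Dnmt3a* KO ESCs, methylation was dense in WT and sparse in the KO. *Fbxw10*, which codes for an F-box protein, had 93.3% in WT, 12.5% without *Dnmt3a* and 62.3% without *Dnmt3b* over 11 CpGs, with 341 or more reads in WT and *Dnmt3a* KO ESCs. The 95% Newcombe interval of its read shares in *Dnmt3a* KO minus WT was -85.8 to -77.3 percentage points. The printed CpG at -280 bp from the TSS went from 88.9% in WT to 0% in *Dnmt3a* KO ESCs and the one at -12 bp from 96.7% to 7.14%. *Prrx2* (chr2:30689992-30690992), a paired-related homeobox gene, had 87.7% in WT, 11.2% without *Dnmt3a* and 84.2% without *Dnmt3b*, and the interval of its read shares in *Dnmt3b* KO minus WT was -17.7 to -2.53 percentage points. It has 16 reference CpGs and also entered the class through missing coverage, and another start of the gene held 61 CpGs. *Anxa1* (chr19:20464934-20465934), which codes for the anti-inflammatory protein annexin A1, had 82.2%, 8.03% and 40.7%, and was far below WT in both KOs. *Ggt6*, of the gamma-glutamyltransferase family, had 11.6% in *Dnmt3a* KO ESCs, *Aspa*, which codes for the enzyme aspartoacylase, 18.4%, and *Dpm3*, a subunit of dolichol-phosphate mannose synthase, 18.9%, from 85.6%, 92.0% and 92.3% in WT. Another start of *Dpm3* held 42 CpGs.

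At the other end a few promoters kept most or all of their methylation without *Dnmt3a*. They had the smallest falls of the 1485 promoters at 80% or more in WT from which genes were named. The part of counting error in this rank was not tested. *Itgb2l*, an integrin beta subunit gene, had 84.2% in WT, 84.9% without *Dnmt3a* and 78.3% without *Dnmt3b* over 5 CpGs. The interval of *Dnmt3a* KO minus WT ran from -11.5 to 7.85 percentage points. Its printed CpG at -264 bp, the only one in a TCGA, was at 50%, 70.6% and 60%. *Cyp2j5* (chr4:96330345-96331345), a cytochrome P450 gene, had 96.2% in WT and the highest *Dnmt3a* KO level of the class, 90.5%. *Krtap16-8*, a hair keratin-associated gene, had 81.1% in *Dnmt3a* KO ESCs and *Vmn2r4*, a vomeronasal receptor gene, 75.9%. *Lcp2*, the adaptor of T cell signalling SLP-76, had 82.1% and *Csta*, a cysteine protease inhibitor, 84.2%, from 89.3% and 92.0% in WT. Apart from *Cyp2j5* (-14.3 to -0.0285 percentage points), every interval of *Dnmt3a* KO minus WT held 0, the lowest reaching -17.6 (*Vmn2r4*, up to 6.36). Only 1 of the 2260 promoters at 80% or more in WT was above WT in *Dnmt3a* KO ESCs, *Itgb2l*. These 6 promoters held 4 to 7 CpGs in the reference, and 5 of the 6 largest differences stood on 8 or more.

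**Figure D4:**
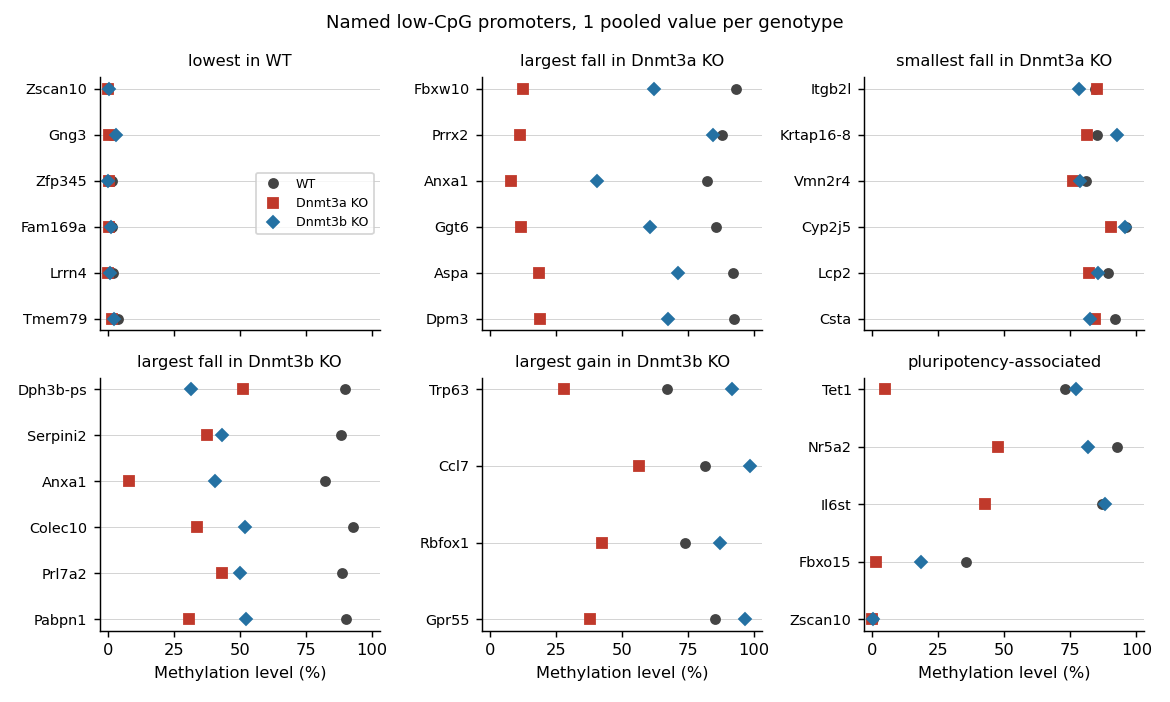
Methylation level (x axis, %) of named low-CpG promoters in WT (circles), *Dnmt3a* KO (squares) and *Dnmt3b* KO ESCs (diamonds), 1 pooled value each, in 6 groups set by rank or list. *Fbxw10* goes from 93.3% to 12.5% without *Dnmt3a*, while for *Itgb2l* the WT and *Dnmt3a* KO points lie together near 84%, and *Zscan10* lies near 0% throughout.

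In *Dnmt3b* KO ESCs differences were ranked among the 1485 promoters fit for naming and at 80% or more in WT. Of the 6 largest there, 5 were at promoters with 4 to 7 reference CpGs, and *Anxa1* was again among them. The largest fall of the whole class, -67.1 percentage points, lay outside these limits. *Dph3b-ps*, annotated as protein-coding here although its symbol marks a pseudogene, had 89.8% in WT, 51.2% without *Dnmt3a* and 31.7% without *Dnmt3b* over 4 CpGs and 51 reads in *Dnmt3b* KO. Its printed CpG at -330 bp was at 100% in WT, 22.7% without *Dnmt3a* and 0% without *Dnmt3b*, the last from 5 reads. *Serpini2* (chr3:75073500-75074500), a serine protease inhibitor gene, had 88.3%, 37.6% and 43.4%. *Colec10* (chr15:54241829-54242829), a collectin gene, had 92.8%, 33.7% and 52.0%, and *Prl7a2*, of the placental prolactin family, 88.9%, 43.2% and 50.3%. *Pabpn1* (chr14:55510837-55511837), which codes for the nuclear poly(A)-binding protein, was the best covered, with 90.2%, 30.8% and 52.5% over 12 CpGs and an interval of -45.9 to -32.6 percentage points for *Dnmt3b* KO minus WT. Another start of that gene held 87 CpGs. Of the 6, *Dph3b-ps* had a lower level without *Dnmt3b* than without *Dnmt3a*. The interval of its read shares in *Dnmt3a* KO minus *Dnmt3b* KO, -8.75 to 26.8 percentage points, held 0. Such an order was seen at 25 of the 2661 promoters in all. The 95th percentile of *Dnmt3a* KO minus *Dnmt3b* KO was -8.81 percentage points in the class and -7.79 in the other 1-kb windows.

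The promoter farthest above WT without *Dnmt3b*, among those from which genes were named, was that of *Trp63* (chr16:25683351-25684351), the gene of the epithelial factor p63. It had 67.1% in WT, 28.0% without *Dnmt3a* and 91.5% without *Dnmt3b* over 5 CpGs, with an interval of 11.7 to 37.5 percentage points for *Dnmt3b* KO minus WT from 55 and 115 reads. *Ccl7*, a chemokine of monocytes, had 81.5%, 56.5% and 98.4%, and both printed CpGs were at 100% in *Dnmt3b* KO ESCs, from 13 and 15 reads. *Rbfox1* (chr16:6808815-6809815), a splicing regulator of neurons and muscle, had 73.7%, 42.3% and 86.9%. *Gpr55*, a receptor gene, had 85.2%, 37.7% and 96.6%. All 4 intervals lay above 0 by counting error, yet these are the extremes of 1745 promoters, of which 206 were above WT in *Dnmt3b* KO ESCs. The farthest above WT in *Dnmt3a* KO ESCs under the same limits were *Masp1*, a protease of the complement lectin pathway (8.87% in WT, 15.3%), *Enpp3*, an ectonucleotidase gene (16.04%, 17.1%), and *Itgb2l*, and every interval held 0. *Zscan10* came next, already below WT.

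The pluripotency-associated list, of 33 genes, had 5 low-CpG promoters, and they differed widely. *Tet1*, which codes for the enzyme that oxidises methylated cytosine, had 72.9% in WT, 4.82% without *Dnmt3a* and 77.1% without *Dnmt3b* over 14 CpGs. The intervals against WT were -71.4 to -60.3 percentage points without *Dnmt3a* and -1.91 to 11.1 without *Dnmt3b*. Of its 5 printed CpGs, 4 were at 0% in *Dnmt3a* KO ESCs, from 6 to 9 reads each, where WT had 46.7% to 92.9%. The promoter measured is the start of the longest isoform, and another start of the gene held 32 CpGs. *Fbxo15*, an F-box gene of ESCs, was partly methylated in WT, at 35.7%, with 1.60% without *Dnmt3a* and 18.4% without *Dnmt3b*. *Il6st* (chr13:113264716-113265716), which codes for the LIF co-receptor gp130, had 87.1%, 42.6% and 88.2%. *Nr5a2*, a nuclear receptor gene, had 92.6%, 47.7% and 81.5%, and *Zscan10* was free of methylation as above.

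The lists of tissue genes lay close to the class. Beside medians of 90.6%, 52.6% and 82.9% in WT and the KOs of *Dnmt3a* and *Dnmt3b* over all low-CpG promoters, 63 epidermal and hair genes had 90.3%, 55.6% and 82.2%, and 94 liver and drug metabolism genes 90.6%, 57.3% and 83.2%. Of these, 50 and 80 were more than 20 percentage points under WT without *Dnmt3a* and 3 and 3 without *Dnmt3b*. The 51 vomeronasal and taste receptors had 87.1%, 52.2% and 77.5%. The 44 chemokines and cytokines had 92.4%, 55.7% and 83.8%, the 60 leukocyte receptors 91.3%, 51.0% and 83.8%, and the 54 granule and blood cell genes 91.5%, 52.2% and 81.2%. The 28 prolactin and placental genes had 89.6%, 52.6% and 80.5%. The 33 digestive and hormone genes had 91.2%, 53.7% and 80.2%, the 41 testis genes 92.9%, 55.4% and 84.6%, and the 19 muscle genes 93.4%, 56.9% and 86.6%. The 822 predicted gene models had 90.4%, 54.6% and 83.7%, with 725 called without *Dnmt3a* and 53 without *Dnmt3b*. In the order of the lists from the vomeronasal to the muscle genes, 48, 41, 58, 50, 28, 31, 35 and 19 promoters were called in *Dnmt3a* KO ESCs and 8, 0, 3, 4, 2, 1, 1 and 0 in *Dnmt3b* KO ESCs. Without values were 2 vomeronasal, 2 digestive, 1 interferon-inducible and 30 predicted members of the lists. Over the class the shares called were 90.9% and 7.44%, and those of these lists ran from 79.4% (epidermal) to 100% without *Dnmt3a* and from 0% to 15.7% (vomeronasal) without *Dnmt3b*. Medians of these lists in *Dnmt3a* KO ESCs stayed between 51.0% and 57.3%.

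The extremes of each list are given here for promoters that met the limits for naming. Lowest and highest in *Dnmt3a* KO ESCs were *Sprr2b* (26.5%) and *Krtap16-8* in the epidermal list, and *Cyp4f16* (5.83%, from 40.3% in WT) and *Cyp2j5* in the liver list. Among cytokines *Tnfsf13*, which codes for the B cell factor APRIL, had 7.12%, from 78.5% in WT, and *Il1b*, which codes for interleukin 1 beta, 81.2%, from 90.8%. Among leukocyte receptors *Ly6g6e* had 0% (20.6% in WT) and *Slamf7* 77.0%. *Ms4a4d* had 0% (6.88% in WT) and the granule protease gene *Mcpt8* 77.5%. *Adam19* had 10.3% and the sperm calcium channel gene *Catsper3* 81.9%, *Pga5*, which codes for pepsinogen, 16.8% and the elastase gene *Cela3b* 73.8%. Another start of *Adam19* held 47 CpGs. *Vmn2r102* (22.3%) and *Vmn2r4*, *Prl7c1* (31.0%) and *Prl8a9* (72.3%), and *Xirp2* (32.6%) and *Myh15* (70.1%) bounded the vomeronasal, prolactin and muscle lists.

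Interferon-inducible genes, which cells switch on upon viral infection, had the lowest *Dnmt3b* KO median among lists of more than 2 promoters. The 20 interferon-inducible genes had medians of 86.7% in WT, 43.6% without *Dnmt3a* and 68.7% without *Dnmt3b*, and 6 of them were more than 20 percentage points under WT in *Dnmt3b* KO ESCs (30%), beside 7.44% of the class. At 80% or more in WT 3 of 12 passed, beside 6.46% of the class at that level, and between 50% and 80% in WT 3 of 7 passed, beside 14.4%. Their median difference from WT was -14.7 percentage points there. The 6 were *Mx2*, *Tgtp1*, *Ifit1*, *Gbp2*, *Gbp3* and *Ifi27l1*, named after their values were seen. *Ifit1*, whose protein binds viral RNA, had 87.7%, 22.5% and 53.3% over 7 CpGs. *Mx2*, an antiviral GTPase gene, had 89.2%, 29.8% and 48.3% over 3 CpGs, and *Ifi27l1* 95.8%, 48.4% and 71.8% over 12. *Tgtp1*, an immunity-related GTPase gene, had 63.8%, 8.30% and 24.7%, and *Gbp2* 70.0%, 28.5% and 37.3%. *Gbp3*, a guanylate-binding protein gene, had 55.1%, 5.75% and 26.2% and was the lowest of the list in *Dnmt3a* KO ESCs. *Ifi27l2b* was the highest, at 69.7%. Several of these genes sit in clusters of close copies, where reads can be shared between copies. Ribosomal protein genes had only *Rpl3l*, a muscle form (90.9%, 22.3% and 66.0%), and *Rps2* (83.5%, 14.7% and 63.1%) as low-CpG promoters among 59 genes, and another start of *Rps2* held 90 CpGs.

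**Figure D5:**
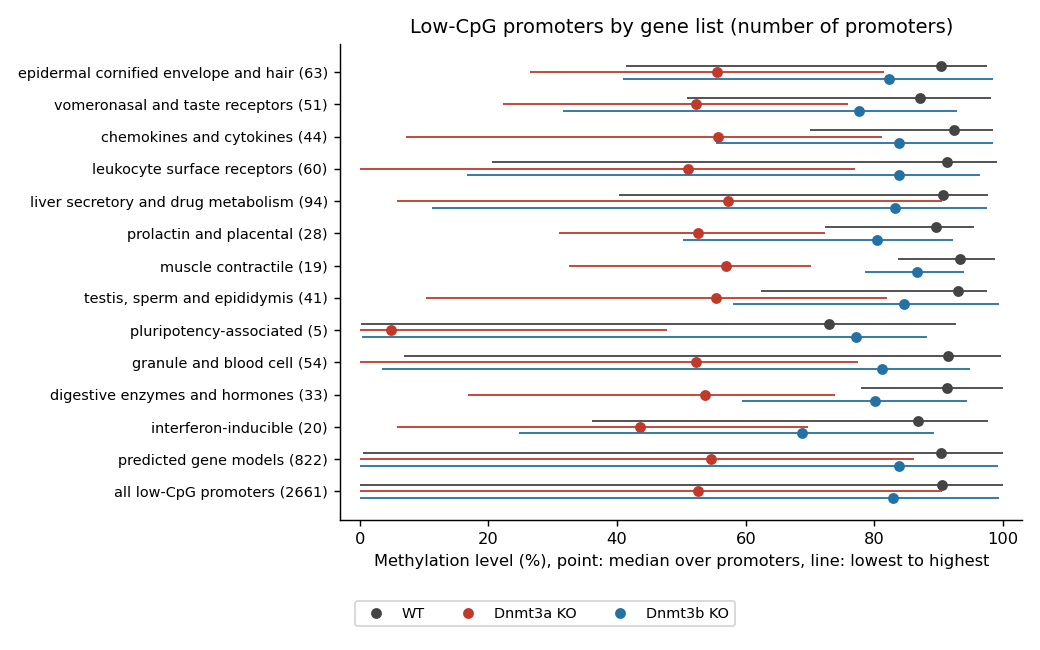
Methylation level (x axis, %) by gene list, with the median over promoters as a point and the lowest to highest promoter as a line, in WT and the KOs of *Dnmt3a* and *Dnmt3b*; the number of promoters stands after each name. The 2 ribosomal protein promoters are not drawn, and apart from the 5 pluripotency-associated and 20 interferon-inducible promoters the list medians drawn lie between 87.1% and 93.4% in WT and between 51.0% and 57.3% in *Dnmt3a* KO ESCs.

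Genes with a further, CpG-rich start had lower medians at the low-CpG start. Another annotated start more than 1 kb away was found for 528 of the 2661 genes, and for 149 it held more than 40 CpGs. The low-CpG promoters of these 149 genes had medians of 88.3% in WT, 46.3% without *Dnmt3a* and 79.98% without *Dnmt3b*. The 2133 genes without a distant start had 90.7%, 53.1% and 83.1%. The gap between them was widest in *Dnmt3a* KO ESCs. Windows of 69 of the 2661 promoters overlapped that of another gene.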

How the data were processed

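WGBS was performed on J1 ESCs, with 3 libraries for each of WT, *Dnmt3a* KO and *Dnmt3b* KO. The authors aligned reads with BSMAP to mm9, trimmed and deduplicated them with BSeQC and called CpGs with MOABS, merging the libraries of a genotype. The deposited tables hold counts of reads and of methylated reads per CpG, and the authors' ratio of them, a fraction per CpG. The counts were used here. The WT table ends on chromosome 4 at position 140865857, where 1 incomplete last row was left out, and promoters beyond it have no WT value.

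Start sites came from the GENCODE annotation of NCBIM37 (mm9), with the isoform of longest span per gene, and base composition and sequences from that assembly. Each promoter spans 1001 bp. CpGs needed 3 or more reads in every genotype, and the level is the unweighted mean of their methylated shares. Intervals are 95% Wilson intervals of pooled reads, and Newcombe intervals for differences. They cover counting error only, and a read over several CpGs of a promoter was counted at each as if independent. With 1 pooled table per genotype no test was run. *Stfa1*, *Igsf8*, *Ikzf2*, *Gm3366*, *Rps19-ps2*, *Dcpp1*, *Dcpp2*, *Gm10222*, *Rps2* and the 6 called interferon-inducible genes were named without regard to the limits given next. The other named genes had 4 or more shared CpGs at a mean of 10 or more reads in every genotype, no overlapping promoter and no symbol of a predicted model. They were the 6 lowest in WT, the 6 with the largest and smallest differences in *Dnmt3a* KO and the 6 with the largest in *Dnmt3b* KO ESCs among those at 80% or more in WT, the 4 farthest above WT in each KO, all pluripotency-associated members, and the lowest and highest in *Dnmt3a* KO ESCs of each other list. The members and the 14 gene lists, which are patterns of symbols, were chosen with earlier results of these data known. Alternatives were the read minimum, read weighting, window width, start site, limit, thinned reads and means for medians. The steps were tested on simulated data with 200 changed promoters. Python 3.11.15, numpy 2.4.6, pandas 2.3.3, scipy 1.17.1 and matplotlib 3.10.9 were used.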

Additional observations from a re-analysis of the deposited data

How the results depend on the processing

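No paired analysis was possible because the 3 libraries of a genotype were deposited as 1 merged table, and for the same reason no replicate could be left out. No direction changed under any alternative run. In *Dnmt3a* KO ESCs 2418 promoters were more than 20 percentage points under WT, and the number was 2598 at a limit of 10, 1828 at a limit of 30 and 1951 by the upper bound of the interval. With the limit kept and no interval asked for, it lay between 2245 and 2516, besides 1926 of the 2133 genes without a distant start. In *Dnmt3b* KO ESCs that number, 198, was 326 within 250 bp of the TSS, 100 within 1000 bp, 905 at a limit of 10 and 39 at a limit of 30 percentage points, and 42 by the upper bound of the interval. The median *Dnmt3a* KO minus WT of -36.4 percentage points was -36.2 with 1 read per CpG, -36.5 weighted by reads, -35.3 within 1000 bp, -36.6 as a mean and -36.0 for genes without a distant start. *Dnmt3b* KO minus WT, -7.07, was -6.66 within 250 bp and -7.90 as a mean. *Dnmt3a* KO minus *Dnmt3b* KO, -28.5, was -29.0 with 10 reads, -28.8 weighted by reads, -28.8 within 250 bp, -27.8 within 1000 bp, -28.7 with thinned reads, -28.7 as a mean and -28.1 for genes without a distant start. The gap to other windows was -1.16 in WT and -4.34 in *Dnmt3a* KO ESCs with thinned reads. In *Dnmt3b* KO ESCs it was -1.84 with thinned reads, -1.91 with 10 reads and -1.73 weighted by reads. The alternatives of genes without a distant start, of 4 or more shared CpGs and of each table's own CpGs were chosen after seeing the data. The planned split by repeats was not run, since the genome used here marks none, and the causes of these shifts were not tested.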

Other observations

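The 57 low-CpG promoters on chromosome 4 beyond the end of the WT table could be compared between the KOs alone, over CpGs with 3 or more reads in both. Their median level was 49.5% in *Dnmt3a* KO ESCs, between 4.22% and 76.7%, and 74.4% in *Dnmt3b* KO ESCs, between 18.7% and 95.3%. *Dnmt3a* KO was the lower at 57 of 57, with a median difference of -24.4 percentage points, beside -28.4 at the 2661 promoters with values in every genotype measured over the CpGs of the KOs alone.

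Olfactory receptor genes, left out of the class by their symbols, code for the odorant receptors of the nasal epithelium. Their 467 promoters with 4 to 14 covered CpGs had medians of 90.8% in WT, 54.9% without *Dnmt3a* and 81.9% without *Dnmt3b*, and no promoter was under 20% in WT. The lowest level at any of them was 56.3% in WT and, taken separately, 15.4% in *Dnmt3a* KO ESCs.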
